A study of Mus musculus with 8 samples.

Results

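Glutathione transferase mRNA was examined in the livers of mice fed a high-fructose diet (HFrD) or a normal diet (ND). The genes are *Gsta1*, *Gsta2*, *Gsta3* and *Gsta4* of the alpha class, *Gstp1* and *Gstp2* of the pi class, *Gstk1* of the kappa class, *Gstz1* of the zeta class and *Mgst1* of the microsomal family. They were chosen by gene symbol, and all 9 were found among the 22564 protein-coding genes of the deposited table. In HFrD livers, *Gsta2*, *Gsta4* and *Gstp1* fell to 25.9%, 34.1% and 55.8% of their mean ND level. *Mgst1* and *Gsta3*, the 2 genes with the most mRNA, were lower in every HFrD mouse than in every ND mouse but did not pass the adjusted test. *Gstz1* and *Gstk1* differed by less than the test could separate from 0, and *Gsta1* and *Gstp2* were at or near 0 FPKM in most livers.

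RNA-Seq was performed on liver RNA depleted of ribosomal RNA from 4 HFrD mice (mice 1, 2, 5 and 7) and 4 ND mice (mice 1, 3, 6 and 7). All were male C57BL/6J mice of 10 to 11 weeks, an inbred strain, and the diets were given for 2 weeks. The HFrD held 10% of its energy as fat, 70% as carbohydrate and 20% as protein, and the composition of the ND is not given in the sources used here. The study used these mice as a model of fatty liver, in 1 sex and 1 strain after a single feeding period. Each library was made from 1 mouse, and the values are FPKM as the authors deposited them, a measure of fragments set against transcript length and library size.

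Glutathione transferases join the tripeptide glutathione to electrophilic compounds, such as drug metabolites and aldehydes from oxidized lipids, so that these can be exported. The alpha, pi and zeta enzymes are cytosolic proteins of 1 superfamily, whereas the kappa enzyme lies in mitochondria and peroxisomes and the microsomal enzyme is an unrelated membrane protein of the endoplasmic reticulum and outer mitochondrial membrane. Hepatocytes are rich in these enzymes, and in mouse liver several of their genes respond to the transcription factor NRF2 and to the xenobiotic receptors CAR and PXR. In the mouse, hepatic *Gstp1* is also known to be higher in males than in females.

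The absolute depth of the libraries is unknown, since read counts were not used here. Relative to ND mouse 1, the depth estimated from low FPKM values ran from 1.13 to 1.49 for HFrD mice and from 0.991 to 1.17 for ND mice, and 14053 to 14392 against 13755 to 13973 genes had a value above 0. The 12 hepatocyte marker genes summed to 54939 to 62756 FPKM in HFrD and 46181 to 56806 FPKM in ND libraries. Most of this was *Alb*, with means of 33791 and 27975 FPKM. By the test described next, 2 of the 12 were higher (*Trf* and *Ttr*), 1 was lower (*Cyp2e1*) and 9 did not pass. The log2 fold change was below 0 for 6 of them. Differences were tested with limma on log2(FPKM + 1) over the 11476 genes that averaged 0.5 FPKM or more, and a gene was counted as changed at an adjusted p under 0.05 (Benjamini and Hochberg over these genes). Fold changes are given on the log2(FPKM + 1) scale, HFrD minus ND, which makes changes of genes near 0 FPKM look smaller than they are.

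Reads from near-identical genes are hard to assign, so the sequences of the 2 closest pairs are shown first. The coding sequences of *Gsta1* and *Gsta2* are identical at 98.05% of 666 aligned bases, and those of *Gstp1* and *Gstp2* at 98.1% of 630 bases (GENCODE M21 transcripts, GRCm38). The stretches of 60 bases below cover coding bases 449 to 508 of the alpha pair, with 5 of its 13 differences, and coding bases 1 to 60 of the pi pair, with 6 of its 12 differences. Capitals mark the bases that differ within a pair.
*Gsta1* coding: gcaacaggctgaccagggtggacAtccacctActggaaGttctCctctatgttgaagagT
*Gsta2* coding: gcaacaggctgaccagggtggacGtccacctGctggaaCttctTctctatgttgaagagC
*Gstp1* coding: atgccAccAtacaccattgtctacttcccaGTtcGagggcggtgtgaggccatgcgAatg
*Gstp2* coding: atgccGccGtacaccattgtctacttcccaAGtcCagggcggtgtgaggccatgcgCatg
The reads were 150 bases long. Of all windows of that length in the transcript, 73.69% in *Gsta1* and 26.77% in *Gsta2* also occur in another gene's transcript, namely the other gene of the pair or *Gm10639* and *Gm3776*. In *Gstp1* the share is 41.82% and in *Gstp2* 49.38%, shared within the pair and with the pseudogene *Gstp-ps*. No window of *Gsta3*, *Gsta4*, *Gstk1*, *Gstz1* or *Mgst1* occurs elsewhere in the transcripts. The split of reads within the alpha and the pi pair is therefore uncertain, while the sum of a pair is less so.

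The genes lie in 6 places (GRCm38, called mm10 in the study). *Gsta4* (chromosome 9, 78182774 to 78209349, plus strand), *Gsta1* (78230656 to 78242684, plus strand) and *Gsta2* (78331018 to 78355788, minus strand) form a cluster on chromosome 9, while *Gsta3* is alone on chromosome 1 (21240589 to 21265661, plus strand). *Gstp1* (4035407 to 4037985) and *Gstp2* (4040285 to 4046023) are neighbours on the minus strand of chromosome 19. *Gstk1* (42245935 to 42250447) and *Mgst1* (138140316 to 138156755) lie far apart on the plus strand of chromosome 6, and *Gstz1* lies on the plus strand of chromosome 12 (87147165 to 87164723). The authors' locus of *Gstz1* also takes in *Pomt2*, so that overlap is a limit of its value.

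The levels of the genes spanned a wide range. *Mgst1* was the 18th most abundant of the 11476 tested genes by mean FPKM, *Gsta3* the 54th, *Gstp1* the 80th and *Gstz1* the 229th. *Gstk1* ranked 993rd, *Gsta4* 2122nd, *Gsta2* 3813th and *Gsta1* 11095th. The order *Mgst1*, *Gsta3*, *Gstp1*, *Gstz1*, *Gstk1*, *Gsta4*, *Gsta2* held in all 8 libraries, and the ranges of neighbours in this order did not overlap in either diet. *Gsta1* and *Gstp2* lay below these 7 in every library, and their order to each other varied. The 9 genes together reached 5048 ± 223 FPKM in the HFrD group and 6400 ± 92.8 FPKM in the ND group (SD, n = 4 mice each), or 1.05 ± 0.0564% and 1.29 ± 0.0329% of all FPKM. The HFrD sums ran from 4736 to 5226 FPKM and the ND sums from 6300 to 6499 FPKM, without overlap. *Mgst1* alone made up 62.5% of the sum in HFrD and 60.3% in ND livers.

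**Figure D1:**
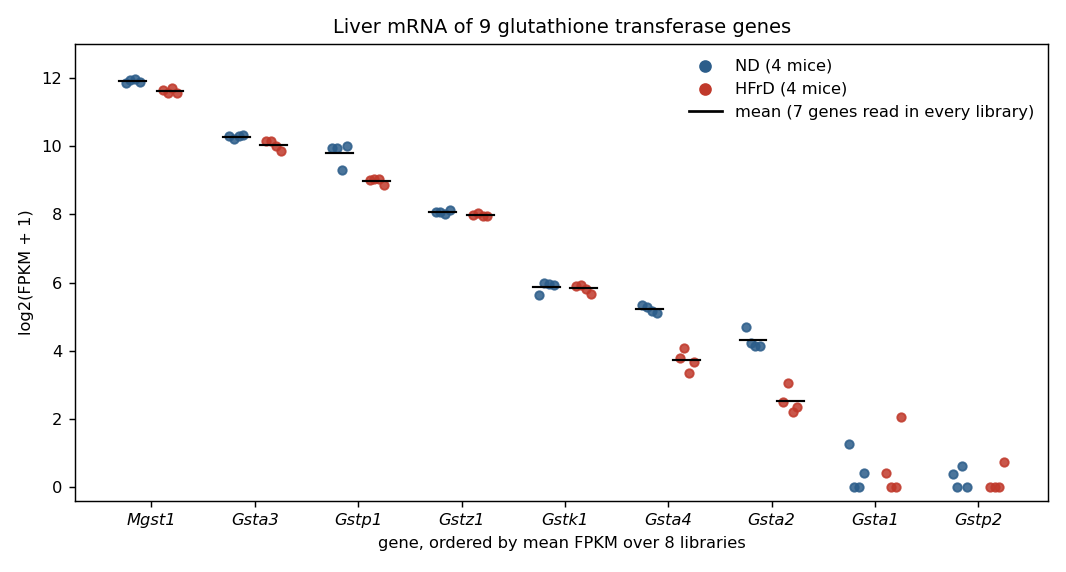
Log2(FPKM + 1) of the 9 glutathione transferase genes in each library (points; ND in blue, HFrD in red), ordered by mean FPKM, with a bar at the mean of the log2 values for the 7 genes read in every library. The genes descend from *Mgst1* (3023 to 4029 FPKM) to *Gsta1* and *Gstp2*, which are listed at 0 in several libraries.

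Of the 9 genes, 8 passed the filter on low values, and of these 3 were lower, 0 were higher and 5 did not pass the test. *Gstp2* was below the filter. Among all 11476 genes, 3.69% were lower and 5.44% were higher in HFrD livers, together 9.12%. With the libraries set to equal medians, 552 genes were higher and 614 lower in place of 624 and 423, and with quantile normalization 568 were higher and 542 lower. By unadjusted p under 0.05, 5 of the 8 passed, against 25.5% of all genes. The median log2 fold change of the 8 was -0.27, beside 0.01 for all tested genes. The study itself named *Gstp1* and *Gsta2* from these libraries, so their direction here is not independent evidence.

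Among the alpha genes, *Gsta2* encodes an inducible subunit that is active toward lipid hydroperoxides. Its FPKM were 4.70, 7.29, 3.57 and 4.15 in HFrD mice 1, 2, 5 and 7 and 24.9, 17.9, 16.6 and 16.8 in ND mice 1, 3, 6 and 7. The highest HFrD mouse, mouse 2, lay below the lowest ND mouse, and ND mouse 1 stood above the other ND mice. The means were 4.93 ± 1.64 and 19.0 ± 3.95 FPKM (SD, n = 4 each), 3.86-fold higher in ND livers. Its log2 fold change was -1.78 (standard error 0.19, 95% interval -2.20 to -1.35, adjusted p = 0.00120 from limma). Without ND mouse 1 it was -1.65 (adjusted p = 0.00454 from limma). With *Gsta1* and *Gsta2* summed, it was -1.61 (adjusted p = 0.00248 from limma). The sum removes the uncertain split of reads within the pair, but not that with *Gm10639* and *Gm3776*.

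*Gsta4* encodes the alpha subunit with high activity toward 4-hydroxynonenal, an aldehyde formed from oxidized fatty acids. HFrD mice 1, 2, 5 and 7 read 12.8, 15.9, 9.27 and 11.8 FPKM. In ND mice 1, 3, 6 and 7 it had 39.3, 37.9, 34.7 and 33.7 FPKM. Each ND mouse therefore exceeded every HFrD mouse, at means of 36.4 ± 2.62 and 12.4 ± 2.72 FPKM (SD, n = 4 each), 2.93-fold apart. The log2 fold change was -1.50 (standard error 0.14, 95% interval -1.81 to -1.19, adjusted p = 7.28e-04 from limma). No window of its transcript is shared with another gene, so that this fall does not rest on reads of *Gsta1* or *Gsta2*.

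*Gsta3* encodes the main constitutive alpha subunit of mouse liver, known for its activity toward the epoxide of aflatoxin B1. HFrD mice 1, 2, 5 and 7 had 1135, 1139, 1021 and 931 FPKM, and ND mice 1, 3, 6 and 7 had 1248, 1183, 1264 and 1288 FPKM. The groups did not overlap, but the means of 1056 ± 100 and 1246 ± 44.9 FPKM (SD, n = 4 each) were only 15.2% apart. The log2 fold change of -0.24 (95% interval -0.45 to -0.03) did not pass the test (adjusted p = 0.136 from limma). *Gsta2* amounted to 0.463 ± 0.125% of *Gsta3* in HFrD and 1.53 ± 0.325% in ND livers (SD, n = 4 each), and *Gsta4* to 1.17 ± 0.207% and 2.93 ± 0.291%. By FPKM, the alpha class was therefore mainly *Gsta3* on both diets. The class summed to 1075 ± 102 FPKM on the HFrD and to 1302 ± 43.4 FPKM on the ND (SD, n = 4 each).

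*Gsta1*, the near-identical copy of *Gsta2*, was listed at 0 in HFrD mice 2 and 5 and in ND mice 3 and 6. It had 0.346 FPKM in HFrD mouse 1, 3.17 in HFrD mouse 7, 1.40 in ND mouse 1 and 0.334 in ND mouse 7. It passed the filter through HFrD mouse 7, and its log2 fold change of 0.20 had a 95% interval of -0.81 to 1.22 (adjusted p = 0.821 from limma). These values cannot separate a higher from a lower level on either diet.

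In the pi class, *Gstp1* encodes the abundant pi enzyme of mouse liver, which takes part in the handling of drug metabolites such as those of acetaminophen. Its FPKM were 511, 525, 525 and 469 in HFrD mice 1, 2, 5 and 7 and 978, 996, 635 and 1031 in ND mice 1, 3, 6 and 7. The 4 HFrD mice lay close together, and ND mouse 6 lay between them and the other 3 ND mice. The means were 508 ± 26.8 and 910 ± 184 FPKM (SD, n = 4 each), 44.2% lower in HFrD livers. The log2 fold change was -0.82 (standard error 0.15, 95% interval -1.15 to -0.49, adjusted p = 0.0101 from limma). Without ND mouse 6 it was -0.98 (adjusted p = 0.00187 from limma). *Gstp1* amounted to 15.5 to 17.4% of *Mgst1* in HFrD livers and to 15.8 to 27.5% in ND livers, where ND mouse 6 was again the lowest. In absolute FPKM this gene lost more than the other members apart from *Mgst1*.

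*Gstp2*, its neighbour, was listed at 0 in HFrD mice 1, 2 and 5 and in ND mice 3 and 7. It had 0.670 FPKM in HFrD mouse 7, 0.309 in ND mouse 1 and 0.542 in ND mouse 6. No direction can be read from these values. The pair summed to 508 ± 26.5 FPKM on the HFrD and to 910 ± 184 FPKM on the ND (SD, n = 4 each), and most of it was assigned to *Gstp1* in the deposited values. The 250 bases before the starts of these genes are shown because the genes differ so widely in level while these bases are identical at 88.51% of 235 aligned positions (RefSeq, GRCm38.p6, minus strand, chr19:4037913-4038162 for *Gstp1* and chr19:4042222-4042471 for *Gstp2*). Capitals mark the letters TGAGTCA, bound by AP-1 factors.
*Gstp1* promoter: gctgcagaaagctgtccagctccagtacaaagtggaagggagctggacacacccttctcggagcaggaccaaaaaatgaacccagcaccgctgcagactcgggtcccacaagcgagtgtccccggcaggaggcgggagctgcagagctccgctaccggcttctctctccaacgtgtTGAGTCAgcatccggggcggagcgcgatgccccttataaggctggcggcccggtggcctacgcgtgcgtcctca
*Gstp2* promoter: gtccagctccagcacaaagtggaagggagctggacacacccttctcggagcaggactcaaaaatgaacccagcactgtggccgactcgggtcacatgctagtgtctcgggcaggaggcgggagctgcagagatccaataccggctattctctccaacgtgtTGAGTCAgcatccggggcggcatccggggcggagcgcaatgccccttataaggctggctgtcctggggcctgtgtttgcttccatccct
The letters begin at position -74 from the start in *Gstp1* and at -89 in *Gstp2*. TGAGTCA, searched on both strands, was found in 4.463% of 32851 mouse promoters of this length. The core of the antioxidant response element, TGACNNNGC, was searched in the same way and found in 10.16% of them. The motifs can overlap in principle, but no member's window held both as searched. In *Gstp1* and *Gstp2* the marked letters run on as TGAGTCAgc, which departs from TGACNNNGC only by G in place of C. Variants of this kind were not searched, so the search would have missed such a form of the element. Of the 8 members with a RefSeq promoter, *Gsta3* holds this core at position -121, and *Mgst1* holds it on the opposite strand at -56 in the first of its 2 promoters. Neither motif was found in the windows of *Gsta1*, *Gsta2*, *Gstk1* and *Gstz1*. *Gsta4* was not among these promoters. The genes that fell, *Gsta2* and *Gstp1*, therefore do not share either set of letters in this window, and a match is only a match of letters.

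*Mgst1* encodes the microsomal enzyme, which also reduces lipid hydroperoxides in membranes. HFrD mice 1, 2, 5 and 7 had 3216, 3026, 3364 and 3023 FPKM, against 3737, 3934, 4029 and 3744 FPKM in ND mice 1, 3, 6 and 7. All HFrD mice lay below all ND mice. The means of 3157 ± 165 and 3861 ± 144 FPKM (SD, n = 4 each) were 18.2% apart, and the log2 fold change of -0.29 (standard error 0.09, 95% interval -0.50 to -0.09) missed the threshold (adjusted p = 0.0773 from limma). With quantile normalization it was -0.39 and passed (adjusted p = 0.0281 from limma). The same setting made other falls smaller. *Gsta3* went from -0.24 to -0.11 (adjusted p = 0.575 from limma). *Gstp1* went from -0.82 to -0.64 and still passed (adjusted p = 0.0316 from limma).

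*Gstz1* encodes maleylacetoacetate isomerase, which acts near the end of tyrosine breakdown. Its FPKM were 253, 265, 248 and 245 in HFrD mice 1, 2, 5 and 7, against 266, 267, 259 and 280 FPKM in ND mice 1, 3, 6 and 7. The groups overlapped, and the log2 fold change of -0.09 had a 95% interval of -0.24 to 0.07 (adjusted p = 0.480 from limma). *Gstk1*, the kappa enzyme, read 58.7, 60.0, 55.3 and 49.8 FPKM in HFrD mice 1, 2, 5 and 7, against 48.4, 63.1, 61.2 and 60.6 FPKM in ND mice 1, 3, 6 and 7. Its lowest value was that of an ND mouse, and its log2 fold change of -0.05 had a 95% interval of -0.28 to 0.18 (adjusted p = 0.785 from limma). These intervals leave room for small differences, and a lack of difference was not shown.

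**Figure D2:**
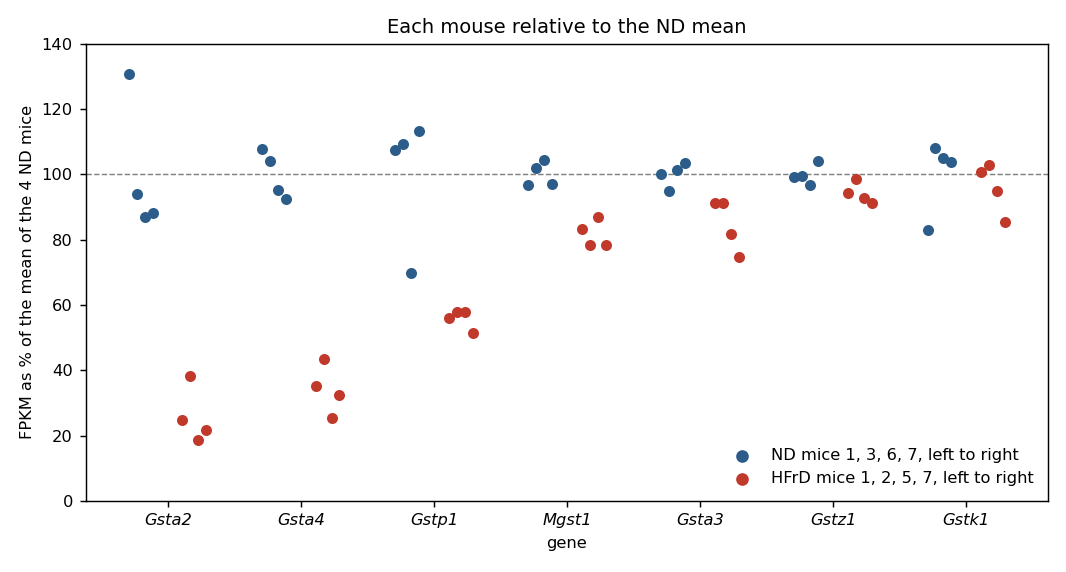
FPKM of each mouse as a percentage of the mean of the 4 ND mice, for the 7 genes read in every library (points in mouse order within each diet; dashed line at 100%). The HFrD mice sit below all ND mice for *Gsta2*, *Gsta4*, *Gstp1*, *Mgst1* and *Gsta3*, and the diets overlap for *Gstz1* and *Gstk1*.

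In all, 5 of the 8 tested genes had every HFrD value below every ND value, against 7.01% of all tested genes, and 0 had every HFrD value above, against 9.6%. Over all 70 divisions of the 8 mice, the exact permutation test (two-sided) gave p = 0.0286, the smallest this design allows, for each of these 5. It gave 0.0571 for *Gstz1*, 0.543 for *Gstk1* and 0.714 for *Gsta1*. For the 5 genes without overlap, that lack of overlap fixes the p of this test, which therefore adds no separate evidence. By their log2 fold changes, the low-level *Gsta2* and *Gsta4* moved most, *Gstp1* less, and the abundant *Mgst1* and *Gsta3* least of these 5. In simulated data, 16 of 50 genes changed by 0.5 on this log2 scale were recovered and 41 of 50 changed by 1, and smaller changes were not simulated. The shifted genes were drawn at random from all levels, and they were a smaller share than the 9.12% called in the data. The recovery of abundant genes such as *Mgst1* and *Gsta3* can therefore differ from these counts.

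*Gsta2* and *Gsta4* had similar profiles over the 8 libraries. Among HFrD mice, both were highest in mouse 2 and lowest in mouse 5. Among ND mice both were highest in mouse 1, but *Gsta2* was lowest in mouse 6 and *Gsta4* in mouse 7. The likeness of 2 genes was measured as the root-mean-square distance of their log2(FPKM + 1) values, scaled to mean 0 and unit SD over the 8 libraries, which includes the difference between diets. The distance of *Gsta2* to *Gsta4* was 0.131, below that of *Gsta2* to any of the 6613 other genes that averaged 5 FPKM or more. The nearest of those to *Gsta2* were the kinase gene *Map2k6* (0.200), the carboxylesterase gene *Ces1b* (0.202) and the glucuronosyltransferase gene *Ugt2b36* (0.209). Nearest to *Gsta4* were *Dbt* (0.150), a subunit of the branched-chain ketoacid dehydrogenase, *Whamm* (0.160) and *Ces1b* (0.178). *Gstp1* was farther from both, at 0.447 to *Gsta2* and 0.463 to *Gsta4*, and nearest to *Pphln1* (0.167), *Mccc1* (0.287) and *Vps33a* (0.302). These distances are over 8 libraries of 2 diets and are a description.

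The neighbours of the genes that fell were looked at after the values were seen. By the authors' loci, *Elovl5*, a fatty acid elongase gene 207 kb from *Gsta4*, rose from 66.0 to 436 FPKM (log2 fold change 2.59, adjusted p = 0.00145 from limma). Also within 300 kb of the chromosome 9 cluster, *Eef1a1* differed by -0.01 (adjusted p = 0.933) and *Fbxo9* by -0.43 (adjusted p = 0.0772) on the log2 scale. Of the 6 tested genes near *Gsta2* and *Gsta4* that are not members, *Elovl5* was higher, 0 were lower and 5 did not pass. Of 21 tested genes within 300 kb of *Gstp1*, 2 passed the test as higher and 0 as lower, a share near that of all genes. Those 2 were *Cdk2ap2* and *BC021614*, with log2 fold changes of 0.58 and 0.91 (adjusted p = 0.0402 and 0.0417 from limma), and the other 19 ran from -0.36 to 0.60.

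The remaining glutathione transferase genes went in both directions. Of 19 in the table, 13 were tested, and 2 were higher, 1 was lower and 10 did not pass, with a median log2 fold change of 0.19. *Gstm2*, of the mu class, rose from 27.0 ± 5.06 FPKM on the ND to 59.9 ± 18.7 FPKM on the HFrD (SD, n = 4 each), by 1.09 on the log2 scale (adjusted p = 0.0145 from limma). *Gstt1*, of the theta class, rose from 90.9 ± 5.62 to 132 ± 19.5 FPKM (log2 fold change 0.52, adjusted p = 0.0184 from limma). *Gsto1*, of the omega class, fell from 57.4 ± 6.60 to 41.1 ± 4.93 FPKM (log2 fold change -0.47, adjusted p = 0.0292 from limma). *Gstm1*, the most abundant of this list, had 332 ± 48.1 FPKM on the HFrD and 379 ± 18.3 FPKM on the ND (adjusted p = 0.283 from limma). Whether the classes differ in their response was not tested.

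**Figure D3:**
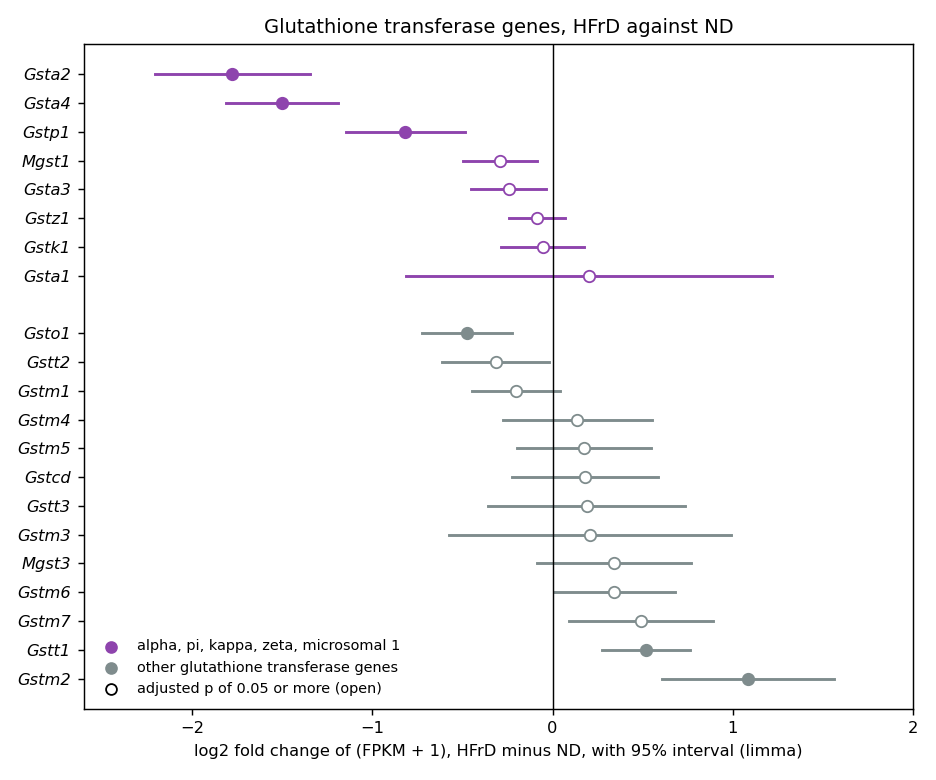
Log2 fold change of FPKM + 1, HFrD minus ND, with its 95% interval from limma, for the 8 tested members (purple) and 13 other glutathione transferase genes (grey), filled where the adjusted p is under 0.05. *Gsta2* (-1.78), *Gsta4* (-1.50) and *Gstp1* (-0.82) lie farthest to the left and *Gstm2* (1.09) farthest to the right.

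Glutathione itself is made from cysteine, which the liver draws partly from methionine. Of 18 tested genes of its synthesis and turnover, 5 were lower and 1 was higher. *Gss*, glutathione synthetase, fell from 23.4 to 12.0 FPKM (log2 fold change -0.92, adjusted p = 0.0175 from limma). *Cth*, cystathionine gamma-lyase, fell from 174 to 97.7 FPKM (log2 fold change -0.86, adjusted p = 0.00882), and *Csad*, which makes hypotaurine from cysteine sulfinate, from 25.2 to 9.19 FPKM (log2 fold change -1.41, adjusted p = 0.0211). *Mat1a*, which makes S-adenosylmethionine, rose from 489 to 713 FPKM (log2 fold change 0.55, adjusted p = 0.00877). The most abundant of them, the methyltransferase gene *Bhmt*, had 1041 FPKM on the HFrD and 1549 FPKM on the ND (adjusted p = 0.0967). The median of the list was -0.13.

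Conjugates leave the hepatocyte through ABC transporters, and part of them become mercapturates. Of 15 tested genes of these steps, 4 were lower and 0 were higher (median -0.15). *Abcc3*, an exporter to the blood side, fell from 55.4 to 15.7 FPKM (-1.82 on the log2 scale, adjusted p = 0.00183 from limma), and *Abcc2*, the canalicular exporter of glutathione conjugates, from 239 to 168 FPKM (log2 fold change -0.51, adjusted p = 0.0111). *Nat8* and *Cml2*, of a family of N-acetyltransferases, fell by 0.81 and 0.71 on the log2 scale (adjusted p = 0.0180 and 0.04996). Among 16 genes of glutathione-dependent peroxide and aldehyde enzymes, *Glrx* was higher (log2 fold change 0.44, adjusted p = 0.0312) and *Hagh*, glyoxalase 2, lower (log2 fold change -0.57, adjusted p = 0.0452), and 14 did not pass, *Gpx1* with 566 and 768 FPKM among them (adjusted p = 0.0606). *Hpd*, which acts in tyrosine breakdown as *Gstz1* does, had 802 FPKM on the HFrD and 916 FPKM on the ND (adjusted p = 0.173).

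Genes known to respond to the same regulators as the members were counted next. Of 30 tested genes of NRF2 and its other targets, 7 were higher and 8 were lower, with a median of 0.04. Those with the smallest adjusted p among the higher were *Me1*, *Ftl1* and *Pgd*, with log2 fold changes of 3.08, 0.71 and 1.73. *Me1* and *Pgd* make NADPH and *Ftl1* encodes a ferritin subunit. Among the lower were *Aox1*, *Abcc3* and *Ephx1*, with log2 fold changes of -1.15, -1.82 and -0.87 (adjusted p from 7.54e-04 to 0.0120 for these 6, from limma). Of 20 genes of CAR, PXR and AhR and their other targets, 8 were lower and 0 were higher, with a median of -0.56. *Cyp1a2*, an AhR target, fell from 372 to 143 FPKM (log2 fold change -1.38, adjusted p = 2.52e-04). *Tiparp* (0.17, adjusted p = 0.606) and *Ugt1a6a* (-0.31, adjusted p = 0.0636) of the same list did not pass, and *Cyp1a1* and *Cyp1b1* were below the filter. *Cyp3a11*, the typical PXR target, fell from 1697 to 418 FPKM (log2 fold change -2.09, adjusted p = 0.00291). *Cyp3a25* had 219 FPKM on the HFrD and 592 FPKM on the ND (adjusted p = 0.00282). *Cyp2b10*, the typical CAR target, had 0.0952 FPKM on the HFrD and 1.28 FPKM on the ND (adjusted p = 0.00195). It passed the filter only through its ND values and lies near the low end of what the libraries can show. Its p-value and its place among the 8 lower genes therefore carry little weight.

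*Gstp1* belongs to the genes that are higher in male than in female mouse liver, and 24 other male-biased genes were tested. Of these, 13 were lower and 0 were higher, with a median of -0.55. *Cyp7b1* (264 to 65.2 FPKM), *Ugt2b38* (69.2 to 25.3 FPKM) and *Ugt2b1* (530 to 240 FPKM) had the smallest adjusted p, of 7.72e-04, 0.00118 and 0.00166 from limma, and *Mup7*, the most abundant, fell from 15238 to 7896 FPKM (adjusted p = 0.0118). Reads of the *Mup* and *Ugt2b* genes can be shared with near-identical copies. Of 8 tested female-biased genes, *Cyp17a1* and *Rtn4* were higher, with log2 fold changes of 2.12 and 0.39 (adjusted p = 0.00861 and 0.0372 from limma), and 6 did not pass. All these counts are read beside the 9.12% of all genes that changed, and the lists were not tested as sets. Several list genes are named in the study's tables from these libraries and are not independent evidence.

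**Figure D4:**
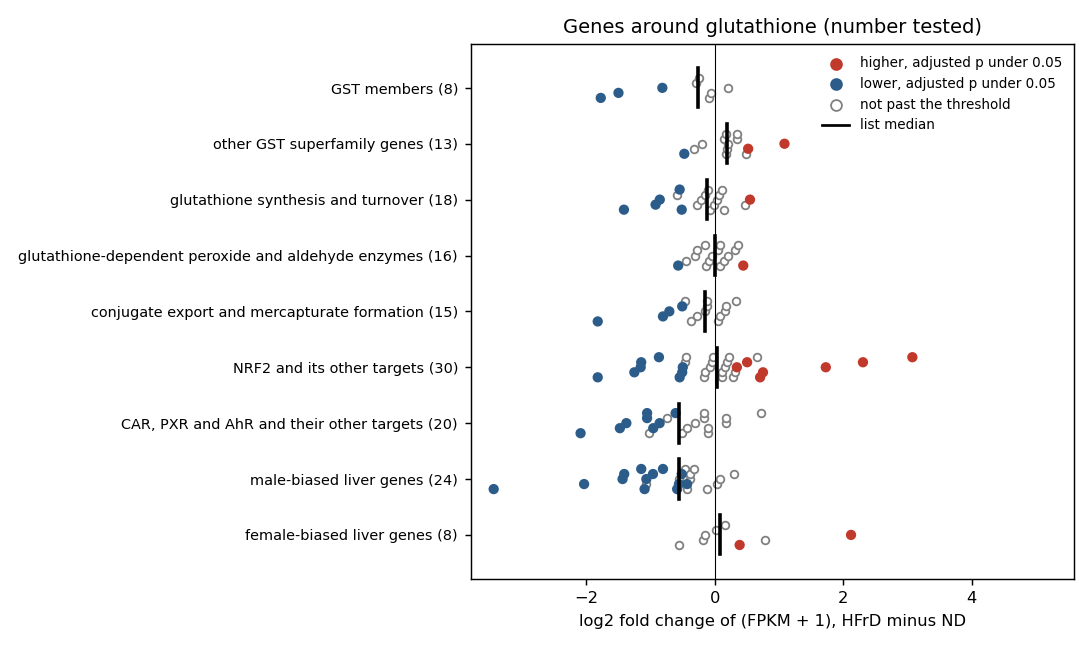
Log2 fold change of FPKM + 1, HFrD minus ND, of each tested gene in 9 of the lists (number tested in parentheses), red where higher and blue where lower at an adjusted p under 0.05, with a black bar at the list median. The medians of the CAR, PXR and AhR list (-0.56) and of the male-biased list (-0.55) lie farthest to the left.

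The whole liver holds several cell types, and in bulk RNA fewer cells of a type cannot be told apart from less RNA per cell. Of 11 tested Kupffer cell and macrophage markers, 8 were higher and 0 lower, and their summed level ran from 226 to 342 FPKM in HFrD and from 112 to 185 FPKM in ND livers. Sinusoidal endothelial markers summed to 123 to 141 against 96.1 to 114 FPKM, with 3 of 10 higher. Pericentral hepatocyte markers, 2 of 12 of them lower, summed to 3140 to 4881 FPKM in HFrD and 5058 to 6059 FPKM in ND livers, mostly *Cyp2e1*. Those 2 were *Cyp2e1* and *Cyp1a2*, which are also counted in other lists above. The log2 fold change was below 0 for 7 of the 12. *Glul* went the other way, with 444 FPKM on the HFrD and 391 FPKM on the ND and no overlap (adjusted p = 0.195 from limma). Periportal markers, 1 higher and 2 lower of 12, summed to 2905 to 3887 against 3126 to 3530 FPKM. Bile duct cells are known to hold the pi enzyme in human liver, and cholangiocyte markers summed to 33.3 to 56.5 against 33.5 to 48.9 FPKM, with 0 of 5 changed. Of the stellate cell markers 1 of 10 was higher, of the lymphocyte markers 0 of 2 changed, and of the erythroid markers 1 of 5 was lower. The part of these markers in the fall of *Gsta2*, *Gsta4* and *Gstp1* was not tested.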

How the data were processed

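Liver RNA-Seq of 4 HFrD and 4 ND mice was analysed, with groups taken from the submitters' labels. The authors deposited 1 table of FPKM values for 22564 protein-coding genes, for which they trimmed reads (cutadapt 1.9.3) and aligned them to mm10 (HISAT2 2.0.4). The submitters' notes further list Cufflinks and Cuffdiff. The annotation release is not given in the sources used here. The labels give a TruSeq stranded kit and the study's methods another directional kit, which could not be settled.

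From the deposited FPKM, log2(FPKM + 1) was tested with limma 3.58.1 (R 4.3.3, eBayes with trend, two-sided) over the 11476 genes averaging 0.5 FPKM or more. Positions and transcripts are GENCODE M21, in which 21839 identifiers were found, and promoters are RefSeq (GRCm38.p6), matched by symbol for 8 of the 9 genes. Sequences were compared with Python 3.11.15. FPKM carry no read counts, so no counting interval can be given, and p-values measure the spread between 4 mice a diet.

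The members, the 10 pathway lists and the 9 marker lists (295 entries, 9 not in the table) were chosen with earlier results of these data known. The counts of 1 pathway list are not reported here. Named were all 9 members, up to 3 genes higher and 3 lower with the smallest adjusted p and the most abundant gene of each pathway list, and the 3 genes most like each changed member. The fit was tested on simulated data (11476 genes), where it found 50 of 50 genes shifted by 2 log2 units and also called 7 unchanged ones. The fit was repeated with quantile normalization, equal medians, array weights, no variance trend, the mouse number as a block, summed near-identical copies, a pseudocount of 0.1, a filter at 1 FPKM or none, each mouse left out, and HFrD mouse 1 and ND mouse 7 left out.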

Additional observations from a re-analysis of the deposited data

Results flagged for a closer look

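In 5 of the 18 groups of 4 examined (9 genes on 2 diets), 1 mouse stood apart from the other 3 by Dixon's criterion, which chance gives in about 1 group in 20. *Gsta2* was highest in ND mouse 1, at 24.9 FPKM. *Gstk1* was lowest in the same mouse, at 48.4 FPKM. *Gstp1* was lowest in ND mouse 6, at 635 FPKM, which is still above all HFrD mice. *Gsta1* (3.17 FPKM) and *Gstp2* (0.670 FPKM) were highest in HFrD mouse 7, where both lie near the low end of what the libraries can show. The values of *Gsta2* without ND mouse 1 and of *Gstp1* without ND mouse 6 are given above, and both genes were lower there too.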

How the results depend on the processing

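*Gsta2*, *Gsta4* and *Gstp1* were lower and past the threshold in 17 of 18 alternatives, including all 8 in which 1 mouse was left out. Over those 8, the log2 fold changes ran from -1.95 to -1.65, from -1.62 to -1.38 and from -0.98 to -0.75, and the highest adjusted p were 0.00609, 0.00425 and 0.0364 (limma, each without ND mouse 3). The exception was the fit with the mouse number as a replicate block, with log2 fold changes of -1.98, -1.50 and -1.04 (adjusted p = 0.0842, 0.0842 and 0.131 from limma), 0 members lower, and 2 genes changed among all, 2 higher and 0 lower. Only the numbers 1 and 7 occur on both diets, so that fit drew its diet difference from these mice alone. The deviations of same-numbered mice correlated at 0.0774 and -0.0137 across genes, and those of differently numbered mice at -0.14 to 0.11. These values show no sign of pairing by number, but 2 pairs are too few to exclude it. *Mgst1* passed with quantile normalization alone (-0.39, adjusted p = 0.0281), and no member changed direction. Leaving out 1 mouse, the number of changed genes ran from 539 to 1293, of higher genes from 340 to 659 and of lower genes from 183 to 634. It moved by over 1.5 times without HFrD mouse 2 (597), 5 (543) or 7 (584), or without ND mouse 1 (539), 3 (570) or 6 (651). Without HFrD mouse 1 and ND mouse 7, 701 genes were lower and the same 3 members were called. *Gsta1* fell below the filter without HFrD mouse 7 and at a filter of 1 FPKM, and *Gstp2* could be tested without a filter only (-0.07, adjusted p = 0.885). Genes near 1 FPKM are limited by depth.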
